A study of Mus musculus with 12 samples.

Results

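The collagen gene family comprised 44 of the 26921 genes in the count table of mouse left ventricle. Its members were the protein-coding genes of GENCODE M21 whose symbol is Col, a number, the letter a and a number. They were divided into 11 fibrillar collagens (the chains of types I, II, III, V, XI, XXIV and XXVII), 6 basement membrane collagens (the chains of type IV) and 27 other collagens. RNA sequencing was carried out on left ventricular tissue of 16-week-old mice, with 6 WT and 6 cmGch1 KO libraries. WT mice carried Gch1 flox/flox alleles without Cre. In cmGch1 KO mice the same floxed alleles were combined with 1 copy of Cre driven by the α-myosin heavy chain promoter, which is active in cardiomyocytes, so that the exons for the active site of GTP cyclohydrolase I, the first enzyme of tetrahydrobiopterin synthesis, were removed in those cells. Floxed littermates without Cre served as controls, and effects of Cre itself and of Gch1 excision cannot be told apart in these libraries.

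Collagens are secreted proteins in which chains with Gly-X-Y repeats wind into a triple helix. Fibrillar collagens pack into the tensile fibres between muscle cells, type IV collagen forms the sheet-like network of the basement membrane around cardiomyocytes and capillaries, and the remaining types link, coat or anchor these structures. In the heart, cardiac fibroblasts are the main source of types I, III and VI, and endothelial and mural cells also make type IV. The floxed gene was removed in cardiomyocytes, so the comparison asks about transcripts made largely by neighbouring cells. In bulk tissue, fewer cells of a type and less RNA per cell cannot be told apart.

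Depth was 19921398 to 37917806 counts per library, of which 36672 to 72880 fell in collagen genes (0.134% to 0.195% of the counts in WT and 0.145% to 0.250% in cmGch1 KO). A count of 0, which allows up to 3 counts, corresponded to between 0.0791 and 0.151 cpm (counts scaled to a common library size), counting error only. Gch1, the targeted gene, was 10.7 ± 0.979 cpm in WT against 5.51 ± 0.859 cpm in cmGch1 KO (means ± SD, n = 6 each), with no overlap between genotypes (log2 fold change -0.96, edgeR FDR 0.000688). cmGch1 KO replicates 2 and 3 stood apart. Their Xist levels were 87.1 and 99.6 cpm against at most 0.235 cpm in the other 10 libraries, and their counts over 4 Y-linked genes were 0 against 168 to 193 cpm. Mitochondrial genes held 14.9% and 16.1% of the counts in these 2 libraries and 18.3% to 22.9% in the others. High Xist without Y-linked counts is the pattern of female tissue, and no WT library had it. The labels give no sex, and both sexes were used in the study according to its methods. The main results are therefore also given without these 2 high-Xist libraries. Summed levels of 9 cardiomyocyte markers were 66100 to 69767 cpm in WT against 60134 to 64757 cpm in cmGch1 KO, as for ventricular muscle, and the genotypes did not overlap in this sum. By gene, 7 of these markers had a negative and 2 a positive log2 fold change. At an edgeR unadjusted p under 0.05, 0 of the 9 were higher and 0 lower, against 7.01% and 4.51% of all tested genes.

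No collagen gene passed the threshold for a difference between genotypes. Of the 44 members, 22 reached the filter of more than 3 cpm in at least 6 libraries (8 fibrillar, 5 basement membrane and 9 other). By the quasi-likelihood test of edgeR with Benjamini-Hochberg adjustment over 11225 genes, 0 of the 22 were called higher in cmGch1 KO at a false discovery rate (FDR) under 0.05, and 0 were called lower. Over all tested genes, 0.677% were called higher and 0.445% lower. At an unadjusted p under 0.05, 4 of the 22 were higher in cmGch1 KO, namely Col3a1, Col6a1, Col6a2 and Col14a1, and 0 were lower. The background was 7.01% of all tested genes higher and 4.51% lower. The genotypes overlapped in every tested member, whereas 1.07% of all tested genes lay wholly higher and 0.802% wholly lower in cmGch1 KO. The Wald test of DESeq2, the likelihood ratio test of edgeR and its exact test each called 1 collagen gene, Col3a1, while over all tested genes they called 1.94%, 1.29% and 1.27% higher in cmGch1 KO.

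The point estimates of most tested members nevertheless lay above 0. The log2 fold change (cmGch1 KO over WT) was positive in 17 of the 22, against 46.7% of all tested genes, and its median was 0.14 over the tested members and -0.01 over all tested genes. By class, the median log2 fold change was 0.11 for the 8 fibrillar, -0.02 for the 5 basement membrane and 0.26 for the 9 other collagens. These medians describe the tested members only and carry no test, since collagen genes made by the same cells do not vary independently. Without the 2 high-Xist libraries the class medians were 0.11, 0.03 and 0.16. In that fit 18 of the 22 estimates were positive, against 5683 of all 11225 tested genes. Only Col3a1 then had an unadjusted p under 0.05, against 4.5% of all tested genes in that direction. With 1 library left out, the number of members higher at that p moved, as did the share of all tested genes. The number was 8 without WT replicate 2 (6.99% of all tested genes) or cmGch1 KO replicate 1 (8.42%). It was 2 without WT replicate 4 (5.92%) or cmGch1 KO replicate 5 (6.34%), and 1 without cmGch1 KO replicate 2 (5.11%) or 3 (5.35%). Individual libraries were high or low across much of the family: cmGch1 KO replicate 1 was the lowest cmGch1 KO library in 16 of the 22 members, cmGch1 KO replicate 2 the highest in 11, WT replicate 2 the highest WT library in 15 and WT replicate 4 the lowest in 10.

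**Figure D1:**
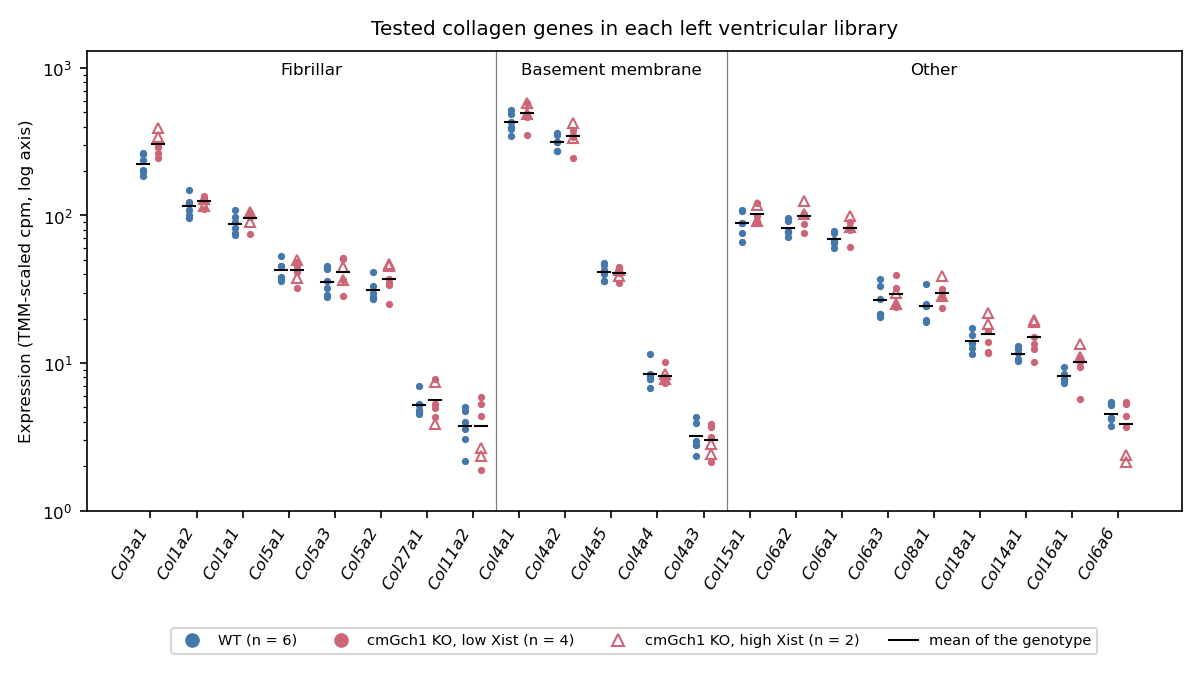
Expression of the 22 tested collagen genes (TMM-scaled cpm, log axis) in each of the 12 libraries, with WT in blue and cmGch1 KO in red, open triangles for the 2 high-Xist cmGch1 KO libraries and bars for genotype means. The clouds overlap in every gene; for Col3a1, 5 of 6 cmGch1 KO libraries lie above all WT libraries.

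**Figure D2:**
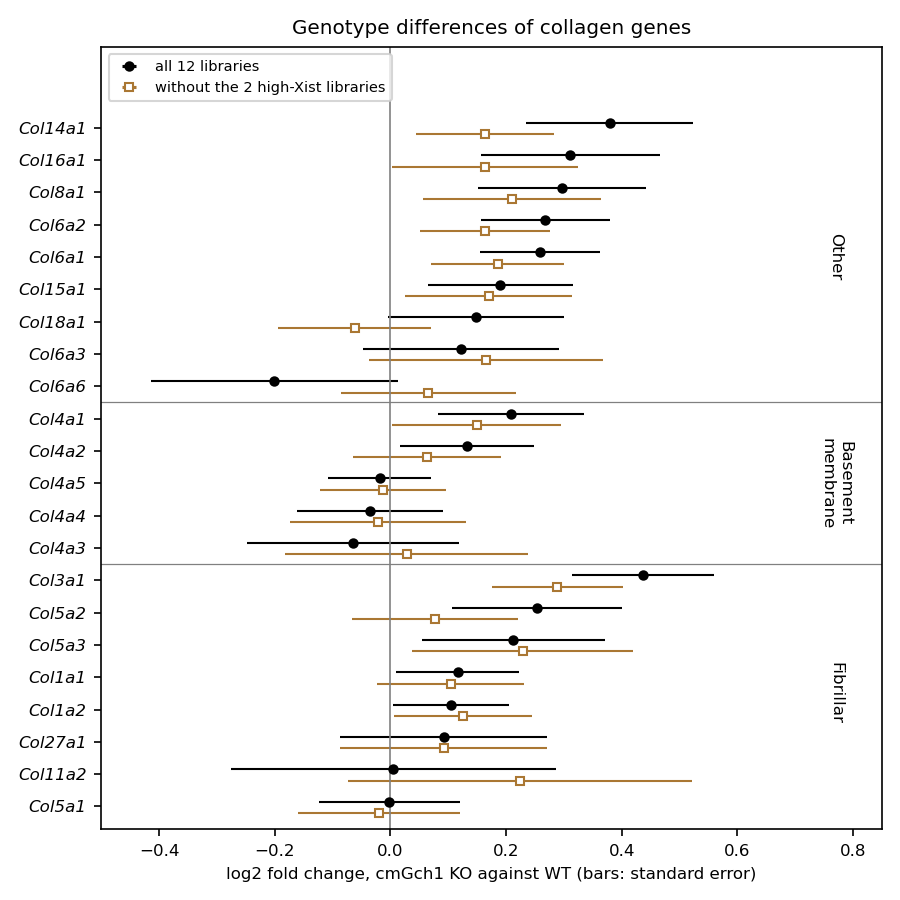
Log2 fold change (cmGch1 KO over WT) with its standard error for each tested collagen gene, over all 12 libraries (filled circles) and without the 2 high-Xist libraries (open squares). Col3a1 moves from 0.44 to 0.29 and Col14a1 from 0.38 to 0.16 when these libraries are left out.

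Among the fibrillar collagens, Col3a1 had the largest difference between genotypes. Col3a1 (ENSMUSG00000026043, GRCm38 chr1:45311538-45349706, plus strand) encodes the single chain of type III collagen, the fine reticular fibre that accompanies type I in the myocardium. Its lowest, median and highest levels were 185, 221 and 264 cpm in WT against 246, 293 and 389 cpm in cmGch1 KO. Of the cmGch1 KO libraries, 5 of 6 exceeded all WT libraries, and the other lay within the WT range. The 2 highest, at 343 and 389 cpm, were the high-Xist libraries, and the other 4 spanned 246 to 293 cpm. The mean was 225 ± 34.5 cpm in WT against 305 ± 52.7 cpm in cmGch1 KO, a log2 fold change of 0.44 (SE 0.12, 95% interval 0.17 to 0.70, edgeR unadjusted p = 0.00306, FDR 0.126). The exact two-sided permutation test of its cpm gave p = 0.00866, unadjusted. By the other tools the adjusted p was 0.0340 (DESeq2 Wald test), 0.0488 (edgeR likelihood ratio test) and 0.0487 (edgeR exact test). Without the 2 high-Xist libraries the log2 fold change was 0.29 (SE 0.11, FDR 0.562), and with 1 library left out at a time its FDR was between 0.0786 and 0.301.

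The sequence upstream of Col3a1 is shown because this gene had the largest fibrillar difference and its upstream stretch was unusual in base composition among the collagens. The 250 bases before its RefSeq start lie at chr1:45311288-45311537 on the plus strand of GRCm38.p6 and overlap no annotated exon. Capitals mark the only match to the TATA box motif TATAAA, whose first base lies 117 bases before the start.
Col3a1 upstream: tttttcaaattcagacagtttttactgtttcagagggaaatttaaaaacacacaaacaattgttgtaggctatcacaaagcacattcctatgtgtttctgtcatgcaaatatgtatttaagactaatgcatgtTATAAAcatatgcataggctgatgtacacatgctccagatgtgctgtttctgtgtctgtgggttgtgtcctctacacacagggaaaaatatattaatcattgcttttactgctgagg
Its GC content was 35.2%, the lowest of 38 collagen windows of the same length, for which 35 of the 44 members matched the RefSeq table. The median was 59.0% over those windows and 52.4% over 32851 windows of all genes, of which 5.41% had a GC content at or below that of Col3a1. On both strands, TATAAA was found in 13.2% of collagen windows and 12.4% of all windows, CCAAT in 34.2% and 33.8%, and the GC box GGGCGG in 57.9% and 32.7%. These matches describe letters in the windows and were not tied to the expression values.

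Type I collagen, the main load-bearing fibre, did not differ detectably between genotypes. Col1a1, which encodes its α1 chain, had lowest, median and highest levels of 73.7, 86.1 and 109 cpm in WT against 75.4, 99.7 and 105 cpm in cmGch1 KO. The cmGch1 KO range lay entirely inside the WT range. The log2 fold change was 0.12 (SE 0.11, 95% interval -0.11 to 0.34, edgeR FDR 0.777). Col1a2, the α2 chain, was 116 ± 19.1 cpm in WT against 125 ± 10.2 cpm in cmGch1 KO, again with the cmGch1 KO range (111 to 136 cpm) inside that of WT (95.9 to 149 cpm), and its log2 fold change was 0.10 (95% interval -0.11 to 0.32, edgeR FDR 0.796). These intervals leave room for differences of up to 0.34 on the log2 scale.

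Type V collagen, which is buried in type I fibrils and limits their diameter, had chains with different point estimates. Col5a2 was 31.1 ± 5.51 cpm in WT against 37.2 ± 7.99 cpm in cmGch1 KO (log2 fold change 0.25, 95% interval -0.06 to 0.57, edgeR FDR 0.567). Its 2 highest values, 45.2 and 46.7 cpm, were in the high-Xist libraries, without which the log2 fold change was 0.08. Col5a3 was 35.6 ± 7.36 cpm in WT against 41.3 ± 9.04 cpm in cmGch1 KO (log2 fold change 0.21, edgeR FDR 0.704). Col5a1, the chain shared by type V trimers, was 42.7 ± 6.67 cpm in WT against 42.6 ± 6.86 cpm in cmGch1 KO, a log2 fold change of 0.00 with a 95% interval of -0.26 to 0.26 (edgeR FDR 0.999). The remaining tested fibrillar genes were low: Col27a1 was 5.23 ± 0.898 and 5.58 ± 1.63 cpm, and Col11a2 was 3.76 ± 1.08 and 3.73 ± 1.67 cpm, in WT and cmGch1 KO respectively.

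The basement membrane collagens showed no detectable difference between genotypes. Type IV chains assemble into trimers of α1 and α2 chains, the ubiquitous form, or into trimers that contain α3 to α6 chains. Col4a1, the α1 chain, had lowest, median and highest levels of 345, 414 and 518 cpm in WT against 353, 489 and 582 cpm in cmGch1 KO. Of the 6 cmGch1 KO libraries, 2 exceeded all WT libraries and 5 exceeded the WT median. The log2 fold change was 0.21 (SE 0.13, 95% interval -0.06 to 0.48, edgeR FDR 0.590). Col4a2, the α2 chain, was 315 ± 37.0 cpm in WT against 345 ± 59.4 cpm in cmGch1 KO, and its cmGch1 KO libraries spread from below to above all WT libraries (245 to 424 cpm against 273 to 362 cpm). Its log2 fold change was 0.13 (95% interval -0.12 to 0.38, edgeR FDR 0.763), and 0.06 (FDR 0.998) without the high-Xist libraries. Col4a5 was 41.4 ± 5.07 cpm in WT against 40.9 ± 3.47 cpm in cmGch1 KO, with a log2 fold change of -0.02 (95% interval -0.21 to 0.17, edgeR FDR 0.976), the narrowest interval among the tested members. Col4a4 was 8.39 ± 1.62 and 8.19 ± 1.01 cpm, and Col4a3 was 3.18 ± 0.768 and 3.01 ± 0.678 cpm, in WT and cmGch1 KO (edgeR FDR 0.964 and 0.952).

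The type IV genes lie head to head in pairs, and this arrangement is the reason for showing the stretch between a pair of starts. Col4a1 and Col4a2 on chromosome 8 overlap by 22 bases at their starts, 71 bases separate Col4a4 from Col4a3 on chromosome 1, and 1308 bases separate Col4a6 from Col4a5 on the X chromosome. The stretch between Col4a4 (minus strand) and Col4a3 (plus strand) is chr1:82586850-82586920, given on the plus strand of GRCm38.p6 and taken from the RefSeq promoter table.
Col4a4 to Col4a3 gap: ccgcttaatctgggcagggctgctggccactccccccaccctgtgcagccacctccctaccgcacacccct
It holds no capitals because none of the 3 motifs searched upstream of Col3a1 occurs in it on either strand, and its GC content was 69.0%. The genes on its sides were expressed unequally: per kb of exons, Col4a4 was 0.791 ± 0.152 cpm and Col4a3 0.319 ± 0.0770 cpm in WT. Other members are also neighbours without sharing a start. Col3a1 and Col5a2 lie tail to tail 24.6 kb apart, and Col6a2 and Col6a1 follow each other 85.2 kb apart on chromosome 10.

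The other collagens included 3 of the 4 members with an unadjusted p under 0.05, and none passed the FDR threshold. Col6a1 (chr10:76708792-76726168) and Col6a2 (chr10:76595762-76623630), both on the minus strand, encode the α1 and α2 chains of type VI collagen, the beaded filament that ties cells to the interstitial matrix. Col6a1 had lowest, median and highest levels of 60.1, 67.4 and 78.7 cpm in WT against 61.3, 82.8 and 99.1 cpm in cmGch1 KO. All cmGch1 KO libraries but replicate 1 exceeded every WT library. The log2 fold change was 0.26 (SE 0.10, 95% interval 0.04 to 0.48, edgeR unadjusted p = 0.0262, FDR 0.328). For Col6a2 the corresponding levels were 71.4, 77.8 and 96.8 cpm in WT against 76.1, 101.5 and 125 cpm in cmGch1 KO, and 4 of 6 cmGch1 KO libraries exceeded all WT libraries. Its log2 fold change was 0.27 (SE 0.11, 95% interval 0.03 to 0.51, edgeR unadjusted p = 0.0301, FDR 0.345). Without the 2 high-Xist libraries these values were 0.19 (FDR 0.867) for Col6a1 and 0.16 (FDR 0.917) for Col6a2. The α3 chain gene Col6a3, whose product completes the classical type VI trimer, was 26.8 ± 7.06 cpm in WT against 29.2 ± 6.0 cpm in cmGch1 KO, with a log2 fold change of 0.12 (95% interval -0.24 to 0.48, edgeR FDR 0.878).

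Col6a6, a later-described type VI chain, had the lowest point estimate of the 22 tested members, and this rested on the high-Xist libraries. It was 4.51 ± 0.668 cpm in WT against 3.88 ± 1.41 cpm in cmGch1 KO, a log2 fold change of -0.20 (SE 0.21, 95% interval -0.66 to 0.26, edgeR FDR 0.820). The high-Xist libraries held 2.14 and 2.38 cpm, below every other library, while the other 4 cmGch1 KO libraries held 3.70 to 5.48 cpm, close to the WT range of 3.74 to 5.46 cpm. Without the high-Xist libraries its log2 fold change was 0.07.

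The fibril-associated collagens sit on the surface of fibrils and link them to other matrix components. Col14a1 (chr15:55307750-55520803, plus strand) had lowest, median and highest levels of 10.4, 11.2 and 13.1 cpm in WT against 10.2, 14.3 and 19.6 cpm in cmGch1 KO. The high-Xist libraries, at 18.9 and 19.6 cpm, were the highest, and the other 4 cmGch1 KO libraries spanned 10.2 to 15.1 cpm. Its log2 fold change was 0.38 (SE 0.14, 95% interval 0.07 to 0.69, edgeR unadjusted p = 0.0196, FDR 0.293), and 0.16 (FDR 0.931) without those 2 libraries. Col16a1 was 8.15 ± 0.724 cpm in WT against 10.1 ± 2.55 cpm in cmGch1 KO; 5 of 6 cmGch1 KO libraries exceeded all WT libraries and replicate 1, at 5.71 cpm, lay below all of them. Its log2 fold change was 0.31 (95% interval -0.02 to 0.64, edgeR FDR 0.480), and 0.16 (FDR 0.972) without the high-Xist libraries.

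The remaining tested members were a network-forming collagen and the multiplexins, which carry anti-angiogenic fragments at their ends. Col8a1, the α1 chain of type VIII collagen of vessel walls, was 24.4 ± 5.49 cpm in WT against 30.0 ± 5.17 cpm in cmGch1 KO (log2 fold change 0.30, 95% interval -0.02 to 0.61, edgeR FDR 0.470). Col15a1, which lies beneath muscle and capillary basement membranes, was 89.4 ± 16.8 cpm in WT against 102 ± 14.2 cpm in cmGch1 KO (log2 fold change 0.19, 95% interval -0.08 to 0.46, edgeR FDR 0.646). Col18a1, the precursor of endostatin, was 14.1 ± 2.06 cpm in WT against 15.7 ± 3.95 cpm in cmGch1 KO, with a log2 fold change of 0.15 over all libraries and -0.06 without the high-Xist libraries (edgeR FDR 0.814 and 0.998). Its 2 highest cmGch1 KO values, 18.4 and 21.8 cpm, were those 2 libraries, and neither estimate passed the threshold.

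The other 22 members stayed under the expression filter and were not tested. They were 3 fibrillar genes, 1 basement membrane gene (Col4a6) and 18 other collagens, with genotype means of 0 to 2.56 cpm in WT against 0.00462 to 2.15 cpm in cmGch1 KO. Of these, 15 had a read in every library and 7 were at 0 in at least 1 library. Col6a4 had 1 read in 1 cmGch1 KO library and 0 in the other 11. Col2a1, the cartilage fibril, had 0 to 8 counts and Col10a1, a marker of hypertrophic chondrocytes, had 0 to 3 counts per library. The genotypes overlapped in each of the 22. Col9a2, named after its values were seen, was 0.301 ± 0.0927 cpm in WT against 0.700 ± 0.398 cpm in cmGch1 KO, with 6 to 30 counts per library and its highest value, 1.35 cpm, in cmGch1 KO replicate 2.

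Per unit of transcript length, Col4a1 had the highest level of the 44 collagen genes. On the scale of cpm per kb of exons (the union of all annotated exons of a gene), Col4a1 was 57.2 ± 8.74 and Col4a2 47.6 ± 5.60 in WT, followed by Col3a1 (22.9 ± 3.52), Col6a1 (15.8 ± 1.59), Col15a1 (14.1 ± 2.65), Col1a1 (13.4 ± 2.06), Col6a2 (9.87 ± 1.19) and Col1a2 (9.37 ± 1.53). Col6a1 and Col1a1 each lay within 1 SD of Col15a1, by the SD of Col15a1. Col6a2 and Col1a2 lay within 1 SD of each other. In cmGch1 KO the first 8 places were held by the same genes in the same order. The order below Col4a1 depends on the length used. With the longest transcript in place of the exon union, Col1a2 rose from the 8th place to the 4th in WT, at 21.8, and lay above Col1a1, at 14.9. On that scale Col4a2 and Col3a1 were 48.9 and 40.4 in WT, but 53.6 and 54.8 in cmGch1 KO. In cpm per kb of exons, the summed level of all 44 members was 225 ± 27.8 in WT and 259 ± 35.5 in cmGch1 KO. It was 247 ± 33.4 in the 4 cmGch1 KO libraries with low Xist.

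**Figure D3:**
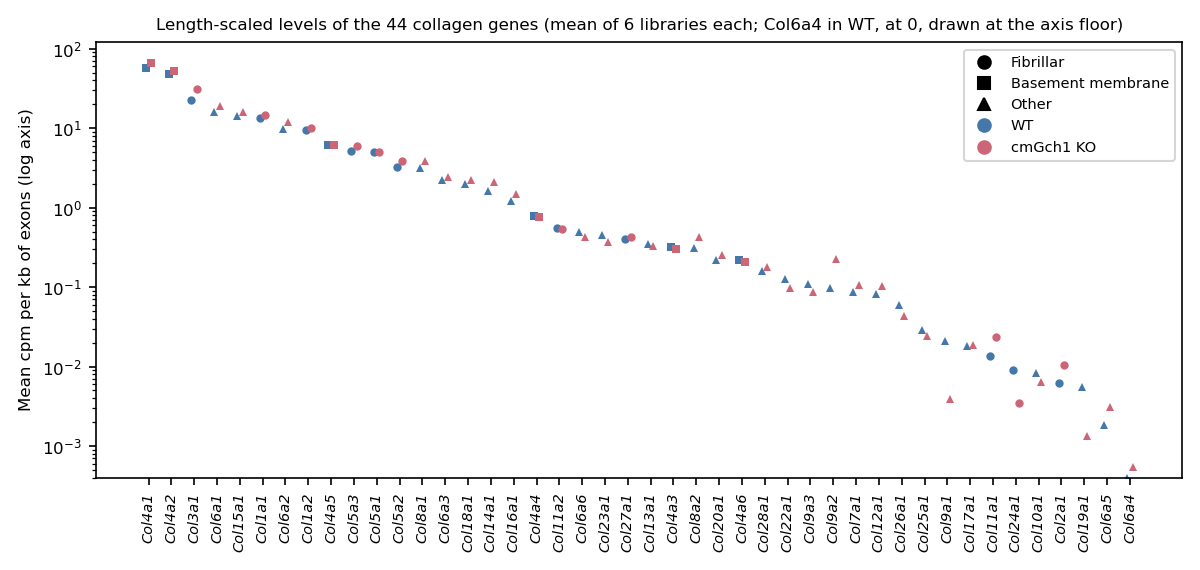
Mean level of each of the 44 collagen genes in cpm per kb of exons (log axis), ordered by the WT mean, with marker shape for the class and colour for the genotype (n = 6 each). Col4a1 and Col4a2 lead at 57.2 and 47.6 in WT, and the levels fall over several orders of magnitude to Col6a4, which is at 0 in WT and drawn at the floor of the axis.

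The balance between classes was close in the 2 genotypes. Basement membrane collagens held 49.9 ± 1.73% of length-scaled collagen reads in WT and 48.4 ± 2.38% in cmGch1 KO, fibrillar collagens 26.8 ± 1.53% and 27.8 ± 1.55%, and other collagens 23.3 ± 0.380% and 23.8 ± 1.12%. Each difference was smaller than the SD in cmGch1 KO, and the ranges overlapped. Col3a1 alone held 10.2 ± 1.23% in WT and 12.05 ± 1.68% in cmGch1 KO. These shares depend on the length used for each gene. With the longest transcript in place of the exon union, fibrillar collagens held 33.3% in WT and 34.6% in cmGch1 KO, and basement membrane collagens 42.9% and 41.3%, so the order of the classes was kept.

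**Figure D4:**
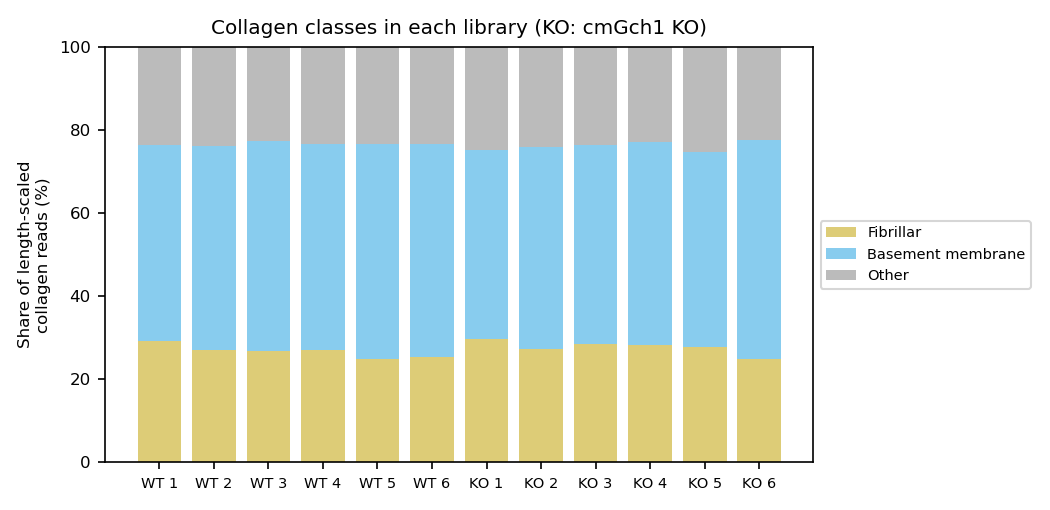
Share of length-scaled collagen reads (%) held by fibrillar, basement membrane and other collagens in each library, stacked to 100%. Basement membrane collagens hold 47.0% to 51.7% in the WT libraries and 45.7% to 52.7% in the cmGch1 KO libraries.

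Ratios between chains of 1 trimer overlapped between the genotypes. The ratio of Col1a1 to Col1a2, in cpm per kb of exons, was 1.44 ± 0.108 in WT and 1.44 ± 0.0846 in cmGch1 KO, that of Col4a1 to Col4a2 was 1.199 ± 0.0752 and 1.27 ± 0.0597, and that of Col6a1 to Col6a2 was 1.60 ± 0.0578 and 1.59 ± 0.0977. Of the 6 cmGch1 KO libraries, 1 exceeded all WT libraries in the ratio of Col4a1 to Col4a2 and 2 in that of Col6a1 to Col6a2. The absolute ratios rest on the lengths: with the longest transcript, Col1a1 to Col1a2 was 0.685 in WT and 0.687 in cmGch1 KO. The ratio of Col1a1 to Col3a1, the main fibrillar collagens, was 0.591 ± 0.0745 in WT (0.469 to 0.684) and 0.478 ± 0.0813 in cmGch1 KO (0.395 to 0.594), with 3 of 6 cmGch1 KO libraries below all WT libraries. In the 4 cmGch1 KO libraries with low Xist it was 0.517 ± 0.0695.

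Col4a1 and Col4a2, which share a start region, varied together across libraries. Over the 12 libraries the log2 cpm of these genes had a Pearson r of 0.94 and a Spearman rho of 0.90 (permutation p = 1e-05, the smallest that 100000 resamples can give, and p = 0.00013), adjusted to 3e-05 and 0.00039 over the 3 pairs examined. Without the 2 libraries farthest from the median of Col4a1, r was 0.92. Within genotypes r was 0.92 in WT and 0.97 in cmGch1 KO (n = 6, exact permutation p = 0.0167 and 0.0139). By rank, rho was 0.89 in WT and 0.77 in cmGch1 KO (exact permutation p = 0.0333 and 0.103). The pair across classes, Col1a1 with Col4a1, had an r of 0.78 and a rho of 0.69 (permutation p = 0.00417 and 0.0165, adjusted 0.00625 and 0.0248), 0.80 without the 2 farthest libraries, and within genotypes 0.70 in WT and 0.83 in cmGch1 KO (n = 6, exact permutation p = 0.122 and 0.0639). The fibrillar pair, Col1a1 with Col3a1, had an r of 0.55 and a rho of 0.55 (permutation p = 0.0634 and 0.0673, the same after adjustment), 0.56 without the 2 farthest libraries, and within genotypes 0.62 in WT and 0.37 in cmGch1 KO (n = 6, exact permutation p = 0.183 and 0.458). Genes of 1 library share its tissue piece, depth and scaling factor.

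Genes that modify, process, bind or degrade collagen gave 3 calls, each higher in cmGch1 KO, among 76 tested genes in 8 lists, against 0.677% of all tested genes. At an unadjusted p under 0.05, 16 of the 76 were higher and 3 lower, against 7.01% and 4.51% of all tested genes. The genotypes did not overlap in 4 of the 76, all higher in cmGch1 KO, against 1.07% of all tested genes. Without the 2 high-Xist libraries the number higher at that p fell from 4 to 1 in fibril-associated matrix and from 4 to 2 in collagen breakdown. It fell from 1 to 0 in both crosslinking and folding and secretion. The number stayed at 3 in prolyl and lysyl hydroxylation, 2 in propeptide processing, 1 in collagen receptors and 0 in basement membrane partners. In that fit 4.5% of all tested genes were higher at that p. Pcolce, which enhances removal of the C-propeptide from fibrillar procollagens, was 35.6 to 45.9 cpm in WT against 50.2 to 74.7 cpm in cmGch1 KO, so that all cmGch1 KO libraries lay above all WT libraries. Its log2 fold change was 0.52 (SE 0.10, edgeR FDR 0.0160). Ddr1, a receptor tyrosine kinase activated by collagen, was 25.6 to 33.3 cpm in WT against 35.0 to 52.9 cpm in cmGch1 KO, again without overlap, with a log2 fold change of 0.53 (SE 0.10, edgeR FDR 0.0158). P4hb, protein disulphide isomerase and the β subunit of prolyl 4-hydroxylase, was 205 to 247 cpm in WT against 261 to 291 cpm in cmGch1 KO, without overlap, with a log2 fold change of 0.30 (SE 0.06, edgeR FDR 0.0407). None of the 3 calls held without the 2 high-Xist libraries, where the log2 fold changes were 0.41 for Pcolce, 0.41 for Ddr1 and 0.30 for P4hb and the edgeR FDR was 0.0589, 0.0898 and 0.154. With 1 library left out at a time, Pcolce was called in 12 of 12 fits, Ddr1 in 10 and P4hb in 3; Ddr1 lost its call without WT replicate 3 (FDR 0.0511) or cmGch1 KO replicate 3 (FDR 0.0621), and the highest FDR of P4hb was 0.115, without WT replicate 5. P4hb kept its call without WT replicate 1, WT replicate 4 or cmGch1 KO replicate 1, and lost it without each of the other 9 libraries and without a filter on low counts (FDR 0.145).

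In the list of prolyl and lysyl hydroxylation, 14 of 15 genes were tested and 9 had a positive log2 fold change (median 0.08). At an unadjusted p under 0.05, P4hb, P3h2 (0.42) and Crtap (0.26), both of the latter from prolyl 3-hydroxylation, were higher in cmGch1 KO and P3h4 (-0.18) was lower. In folding and secretion, 10 of 10 genes were tested with a median of 0.06. The COPII coat gene Sec24d (0.18) was higher and Tmem38b (-0.21), an endoplasmic reticulum cation channel, was lower at an unadjusted p under 0.05. In propeptide processing, 5 of 10 genes were tested (median 0.18). Besides Pcolce, its relative Pcolce2 was 20.7 ± 2.31 cpm in WT against 27.4 ± 3.02 cpm in cmGch1 KO (log2 fold change 0.40, edgeR FDR 0.0611). In crosslinking, 6 of 7 genes were tested, all with positive estimates and a median of 0.08, and the lysyl oxidase relative Loxl1 (0.26) was higher at an unadjusted p under 0.05.

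Among genes of collagen breakdown, 11 of 16 were tested, with a median of 0.17. The membrane-bound metalloproteinases Mmp14 (0.35) and Mmp15 (0.17), the inhibitor Timp2 (0.27) and the collagen uptake receptor Mrc2 (0.25) were higher in cmGch1 KO at an unadjusted p under 0.05. Timp2 was 95.5 to 113 cpm in WT against 117 to 142 cpm in cmGch1 KO, without overlap, and did not pass the threshold (edgeR FDR 0.0653). Of the collagen receptors, 6 of 10 were tested, with a median of -0.01, and Ddr1 was the only one with an unadjusted p under 0.05. Of the basement membrane partners, which include laminins and nidogens, 12 of 14 were tested, with a median of 0.00. Lama5, a laminin α chain, was 114 ± 19.5 cpm in WT against 75.7 ± 19.1 cpm in cmGch1 KO (log2 fold change -0.59, edgeR unadjusted p = 0.00238, FDR 0.117), with its lowest values, 54.4 and 55.1 cpm, in the high-Xist libraries and 71.1 to 100.8 cpm in the other 4 cmGch1 KO libraries. In the fibril-associated matrix, 12 of 12 genes were tested, with a median of 0.06. The proteoglycans Bgn (0.29) and Prelp (0.21), fibronectin (Fn1, 0.24) and periostin (Postn, 0.40) were higher at an unadjusted p under 0.05 and had edgeR FDR values of 0.134 to 0.428.

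**Figure D5:**
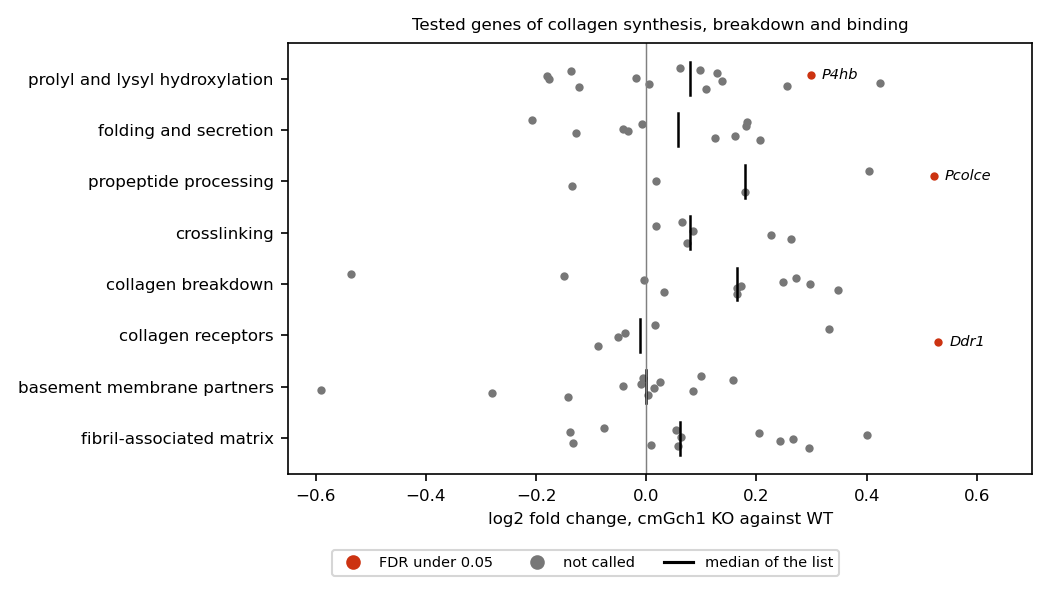
Log2 fold change (cmGch1 KO over WT) for each tested gene of the 8 lists of collagen synthesis, breakdown and binding, with a bar at the median of each list. Pcolce (0.52), Ddr1 (0.53) and P4hb (0.30) are the genes with an FDR under 0.05.

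Levels of cell-type markers are given beside the collagens, and counts at an unadjusted p under 0.05 are to be read against the 7.01% of all tested genes that were higher at that p, or 4.5% without the 2 high-Xist libraries. Of 9 fibroblast markers, 8 were tested and 7 had positive log2 fold changes (median 0.21). Tcf21 (0.38) and Meox1 (0.25) had an unadjusted p under 0.05, and the summed level was 227 to 312 cpm in WT against 256 to 358 cpm in cmGch1 KO, or 256 to 317 cpm in the 4 low-Xist libraries. Without the high-Xist libraries 0 of the 8 had an unadjusted p under 0.05, and the median was 0.11. Of 8 activated fibroblast markers, 7 were tested, all with positive estimates (median 0.23), with Postn, Meox1 and Fn1, each also held by another list here, at an unadjusted p under 0.05 and a summed level of 98.4 to 153 cpm in WT against 112 to 168 cpm in cmGch1 KO. Without the high-Xist libraries 0 of these 7 had an unadjusted p under 0.05, and the median was 0.15. Of 9 macrophage markers, 9 were tested and 7 had an unadjusted p under 0.05, all higher (median 0.27), with a summed level of 186 to 239 cpm in WT against 227 to 274 cpm in cmGch1 KO. Without the high-Xist libraries 3 of the 9 did, and the median was 0.23. Of 9 pericyte and smooth muscle markers, Acta2 rose, from 126 ± 14.3 to 200 ± 32.03 cpm (log2 fold change 0.66, edgeR FDR 0.00672), and the median of the list was -0.06. Endothelial markers had a median of 0.04 over 8 tested genes, of which 1 was lower at an unadjusted p under 0.05, against 4.51% of all tested genes. Epicardial markers had a median of 0.43 over 2 tested genes (0.01 and 0.84), and Schwann and nerve markers 0.27 over 2 (0.05 and 0.49). In each of these 2 lists 1 gene was higher at an unadjusted p under 0.05. Blood markers had a median of -0.39 over 5 genes, cardiomyocyte markers -0.16 over 9 and atrial markers 0.11 over 5, of which Nppa rose (1.53, edgeR FDR 0.0240). The summed atrial level was 103 to 581 cpm in WT against 277 to 780 cpm in cmGch1 KO. With 1 library left out at a time, Nppa was called in 6 of 12 fits and Acta2 in 12 of 12. Without the 2 high-Xist libraries the call of Acta2 was kept and that of Nppa was not (edgeR FDR 0.157). None of the 5 adipocyte markers reached the filter. The part of these cell populations in the collagen values was not tested.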

How the data were processed

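According to the study's methods, stranded paired-end libraries were made with dUTP from left ventricular RNA, and the authors generated the deposited raw counts per gene with HISAT2, Picard and featureCounts. The submitters' processing notes also name SAMtools and GRCm38; the strand setting of the counting is not given in the sources used here, and 12 of the 44 members overlap an annotated gene on the opposite strand, whose reads might not be separated. A second deposited table holds log2 values that the authors had normalized, and was used only as an alternative. No per-sample column was left unused. Genotypes and replicate numbers came from the labels. The study's methods count a single animal as the unit of n, while the labels give only the replicate number. No batch is given in the labels. Replicate libraries were compared in 30 pairs; their counts differed by a chi-square of 13.4 to 85.2 per degree of freedom, so none was a copy.

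Symbols, biotypes, coordinates and exon lengths came from GENCODE M21 (GRCm38), which matched 26545 of 26921 identifiers, and promoter sequences from RefSeq (GRCm38.p6). Counts were scaled by TMM to cpm and tested in edgeR 4.0.16 (R 4.3.3) with a quasi-likelihood fit on genotype, for the 11225 genes above 3 cpm in 6 or more libraries, with Benjamini-Hochberg adjustment over all of them and an FDR threshold of 0.05. The fitting was tested on simulated data. Intervals of log2 fold changes are 95% intervals from the same fit. Single genes were also tested by an exact two-sided permutation test over the 924 splits of 6 against 6, whose smallest p is 0.00216. Alternatives used DESeq2 1.42.0, limma 3.58.1 and sva 3.50.0. Named in the text are Gch1, Xist, the tested collagens, and genes of the 8 lists with an unadjusted p under 0.05. Some collagens under the filter and some marker genes are named as well. The members, gene lists, tests and alternatives were chosen with earlier results of these data known, and alternatives for chain ratios and correlations were added after the data were seen.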

Additional observations from a re-analysis of the deposited data

Results flagged for a closer look

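Among 70 groups of 6 libraries examined for a single library standing apart (Dixon's test at the 95% level, by which chance flags about 1 group in 20), 4 were found. Col27a1 was 6.95 cpm in WT replicate 5 against 4.49 to 5.28 cpm in the other WT libraries. Col4a4 was 11.5 cpm in WT replicate 2 against 6.73 to 8.39 cpm in the others. The ratio of Col6a1 to Col6a2 was 1.49 in WT replicate 2 against 1.60 to 1.66. Pcolce was 74.7 cpm in cmGch1 KO replicate 2, a high-Xist library, against 50.2 to 58.8 cpm in the other cmGch1 KO libraries, and its call was kept without that library.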

How the results depend on the processing

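Results were recomputed under 13 alternatives and with each of the 12 libraries left out. The number of collagen genes called lower was 0 in each of these fits, and the number called higher was 0 except for 1 (Col3a1) under the DESeq2 Wald test, 1 under the edgeR likelihood ratio test and 1 under its exact test. With library size alone the median log2 fold change of all tested genes shifted to 0.07 and 21 of 22 tested members had positive estimates, with 116 genes called higher and 36 lower over all genes; values of members are to be read against that shift. Over the 13 alternatives the class medians were 0.10 to 0.19 (fibrillar), -0.04 to 0.06 (basement membrane) and 0.16 to 0.34 (other). With types VII, XV and XVIII counted as basement membrane, the median of that class was 0.13 and that of the others 0.27. With 1 library left out they were 0.08 to 0.17, -0.06 to 0.08 and 0.18 to 0.32.

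Some estimates changed sign. Those of Col6a6 (-0.20 over all 12 libraries) and Col18a1 (0.15) did so only without the 2 high-Xist libraries or when adjusted for sex-linked expression. The other estimates that changed sign lay nearer 0. With library size alone the estimates became 0.077 for Col5a1, 0.058 for Col4a5, 0.040 for Col4a4 and 0.0086 for Col4a3. Without the 2 high-Xist libraries they became -0.061 for Col18a1, 0.065 for Col6a6 and 0.028 for Col4a3, and when adjusted for sex-linked expression -0.063, 0.057 and 0.021. Col11a2 was -0.0059 by the DESeq2 Wald test, -0.0064 by the likelihood ratio and exact tests, -0.013 without a filter, -0.00096 with the default filter of filterByExpr, -0.086 with 1 surrogate variable and -0.036 in the deposited normalized values. With 1 library left out, ranges were -0.16 to 0.14 for Col11a2, -0.059 to 0.073 for Col5a1, -0.057 to 0.025 for Col4a5, -0.025 to 0.19 for Col27a1, -0.11 to 0.077 for Col4a4 and -0.15 to 0.047 for Col4a3. The cause was not tested.

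Same-numbered libraries were alike only in part. Correlations of same-numbered deviations were 0.69, -0.11, -0.08, -0.14, 0.42 and 0.53, and 3 of the 6 WT libraries correlated best with their own number. These values do not settle whether replicate numbers pair the libraries. With the replicate block, 188 genes were called against 126 without it, 0 collagen genes were called, 8 tested members had an unadjusted p under 0.05 (all higher, against 8.81% of all tested genes higher in that fit), and Col11a2 was -0.061.

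With the longest transcript as the length, class shares in WT and cmGch1 KO were 33.3% and 34.6% (fibrillar) and 42.9% and 41.3% (basement membrane), and 23.8% for other collagens in WT. Ratios in WT and cmGch1 KO were 0.685 and 0.687 (Col1a1 to Col1a2), 1.32 and 1.39 (Col4a1 to Col4a2), 1.01 and 1.004 (Col6a1 to Col6a2), and 0.371 and 0.2996 (Col1a1 to Col3a1). These moves follow from the lengths alone, as the counts are the same. The correlation of Col1a1 with Col3a1 was 0.70 with library size alone (permutation p = 0.0111 after adjustment). Over all genes, 38 were called without the 2 high-Xist libraries, 62 with the sex-linked covariate, 636 with 1 surrogate variable, and 373, 225 and 223 by the DESeq2 Wald, likelihood ratio and exact tests. The number of libraries and the low counts of the 22 untested members limit what could be detected.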
